A study of Mus musculus with 6 samples.

Results

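The genes described here are 10 nuclear genes whose products copy mitochondrial DNA (mtDNA), transcribe it or supply its building blocks. They were taken by gene symbol from a table of 49315 genes, and all 10 members (Polg, Polg2, Twnk, Ssbp1, Polrmt, Tfam, Tfb2m, Tfb1m, Tk2 and Rrm2b) were found and passed the filter on low counts, with 15847 genes tested in all. Messenger RNA was sequenced from gastrocnemius muscles of male C57BL6J mice, an inbred strain, which had received an AAV9 virus by injection into the muscle at 5 months of age and were sampled 5 months later. In AAV9-HSA-CAAHR muscles (replicates 31, 34 and 36) the virus carried a constitutively active aryl hydrocarbon receptor (AHR), a transcription factor made independent of its ligand by removal of the ligand binding domain. In AAV9-HSA-GFP muscles (replicates 42, 43 and 46) it carried green fluorescent protein. HSA stands for the promoter of human skeletal actin, which drove both transgenes and restricts them to muscle fibres. The study notes that expression from AAV9 is known to be mosaic among fibres and to favour fast ones. Every muscle had received a virus, and uninjected muscle was not analysed here. The 3 libraries per group were separately labelled samples, and p-values measure the spread between these samples.

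Mitochondria keep a small circular genome that encodes subunits of the respiratory chain, and muscle fibres carry many copies of it. This genome is copied by a dedicated replisome, in which DNA polymerase gamma (Polg, with its accessory subunit Polg2) follows the helicase Twinkle (Twnk) while the single-stranded DNA binding protein Ssbp1 coats the exposed strand. It is transcribed by the RNA polymerase Polrmt with Tfam, which bends and packages mtDNA, and Tfb2m, which opens the promoter. Tfb1m, a relative of Tfb2m, methylates the small mitochondrial ribosomal RNA. Fibres do not divide, so they make deoxynucleotides for mtDNA with the mitochondrial thymidine kinase Tk2 and with Rrm2b, the p53-inducible small subunit of ribonucleotide reductase. Inherited faults in several of these genes deplete or delete mtDNA and cause muscle disease.

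The delivered gene was examined first. Ahr was at 9.97, 22.8 and 17.3 CPM (a gene's counts relative to the library total, which was adjusted by the TMM method) in CAAHR replicates 31, 34 and 36. It was at 2.47, 2.55 and 1.87 CPM in GFP replicates 42, 43 and 46. Ahr and 4 genes known to respond to the receptor (Ahrr, Cyp1a1, Cyp1b1 and Nqo1) were all called higher in CAAHR muscles, by 2.87 to 7.77 on the log2 scale. The lowest CAAHR library was replicate 31 by Ahr and replicate 34 by Polg. Fast fibre muscle was evident in each library, with Myh4, a fast myosin gene, between 57100 and 92800 CPM, although 4 of 9 fast or general fibre markers were called lower (Acta1, Ckm, Tnnt3 and Tnni2, with log2 fold changes of -0.74 to -0.57) and 0 higher in CAAHR muscles. That count was 7 without CAAHR replicate 34, 1 (Acta1) without CAAHR replicate 31 or GFP replicate 42 or 43, and 0 without CAAHR replicate 36 or GFP replicate 46. Library totals were 43432994 to 58825752 counts, and the members drew from 91 counts (Polg2 in GFP replicate 43) to 2701 counts (Tfb2m in CAAHR replicate 34) per library.

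Promoter windows were read because the delivered protein is a DNA-binding factor, whose core recognition sequence is GCGTG. RefSeq start sites (GRCm38.p6) were found for 9 of the 10 members, with 2 windows for Twnk, and Rrm2b had none. The letters GCGTG, on either strand, stood in the 250 bases upstream of the start in 9 of 10 windows, covering every member with a window except Tk2. Over all 32851 promoter windows of the same length, 28.2% held them. The member windows were 57.2% G and C in the median and all windows 52.4%, and both letters are needed for the motif. The longer form TNGCGTG was in 0 of the 10 windows and in 4.10% of all windows. The letters CCGGAAG, read by ETS factors such as the regulator Gabpa, stood in 7 of 10 windows, against 6.91% of all windows. None of the 10 held the NRF1 core CGCATGCG, which was in 1.55% of all windows, so 0 of 10 is near the background. Only this exact spelling of the NRF1 core was searched. These matches are letters in a window, and no binding was measured. The windows of both polymerase gamma subunits and of the mitochondrial RNA polymerase are shown because the 3 genes, which share the motif, did not share a call. Each is the minus strand, 5′ to 3′, outside the gene as GENCODE M21 annotates it, and capitals mark GCGTG or its reverse complement.
Polg, chr7:79466363-79466523: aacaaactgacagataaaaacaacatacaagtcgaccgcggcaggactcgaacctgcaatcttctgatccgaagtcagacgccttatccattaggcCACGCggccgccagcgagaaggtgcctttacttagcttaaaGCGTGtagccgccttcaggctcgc
Polg2, chr11:106779538-106779787: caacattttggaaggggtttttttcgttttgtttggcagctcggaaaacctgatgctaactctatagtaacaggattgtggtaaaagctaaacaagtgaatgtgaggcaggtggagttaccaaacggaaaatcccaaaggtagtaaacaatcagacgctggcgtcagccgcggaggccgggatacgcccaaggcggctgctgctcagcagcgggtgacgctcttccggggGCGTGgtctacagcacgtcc
Polrmt, chr10:79746582-79746831: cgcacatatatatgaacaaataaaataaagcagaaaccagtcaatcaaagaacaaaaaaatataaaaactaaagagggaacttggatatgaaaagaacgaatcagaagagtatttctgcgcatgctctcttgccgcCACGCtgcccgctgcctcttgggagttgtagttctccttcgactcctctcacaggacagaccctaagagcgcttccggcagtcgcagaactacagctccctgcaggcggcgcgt
The Polg window held the motif 2 times, starting 154 and 113 bases before the RefSeq start. The Polg stretch shown has 161 bases and stops short of that start (79466273), which lies inside the gene as GENCODE M21 annotates it. Its CCGGAAG match, 38 bases before the start, is therefore not shown. The stretches of Polg2 and Polrmt have 250 bases each and reach their RefSeq starts. GENCODE M21 also places another gene, Gm10616, in the Polg window, and no other gene in those of Polg2 and Polrmt. Whether a Polg match lies within Gm10616 was not examined, so the counts of matches are not directly comparable. Polg2 held the motif 1 time, 20 bases before its start, and Polrmt 1 time, 114 bases before its own.

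Of the 10 genes, 1 differed between the groups with an adjusted p below 0.05. This was Polg, which rose. In the same edgeR quasi-likelihood test 7.60% of all tested genes were called, 3.04% as higher and 4.57% as lower, so 1 called gene of 10 is near the background. The count of members called was 2 with DESeq2, which called 10.7% of its genes, and 1 with limma-voom, which called 9.22%. At an unadjusted p under 0.05 there were 3 members (Polg, Twnk and Rrm2b), all fitted higher, where 11.3% of all tested genes were higher at that level. The groups did not overlap for 4 members, all higher in CAAHR muscles, against 15.0% of all tested genes. The median log2 fold change was 0.11 for the members and 0.009 for all tested genes. Against the GFP mean, the median member stood at 0.13, 0.12 and 0.15 (log2) in CAAHR replicates 31, 34 and 36.

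**Figure D1:**
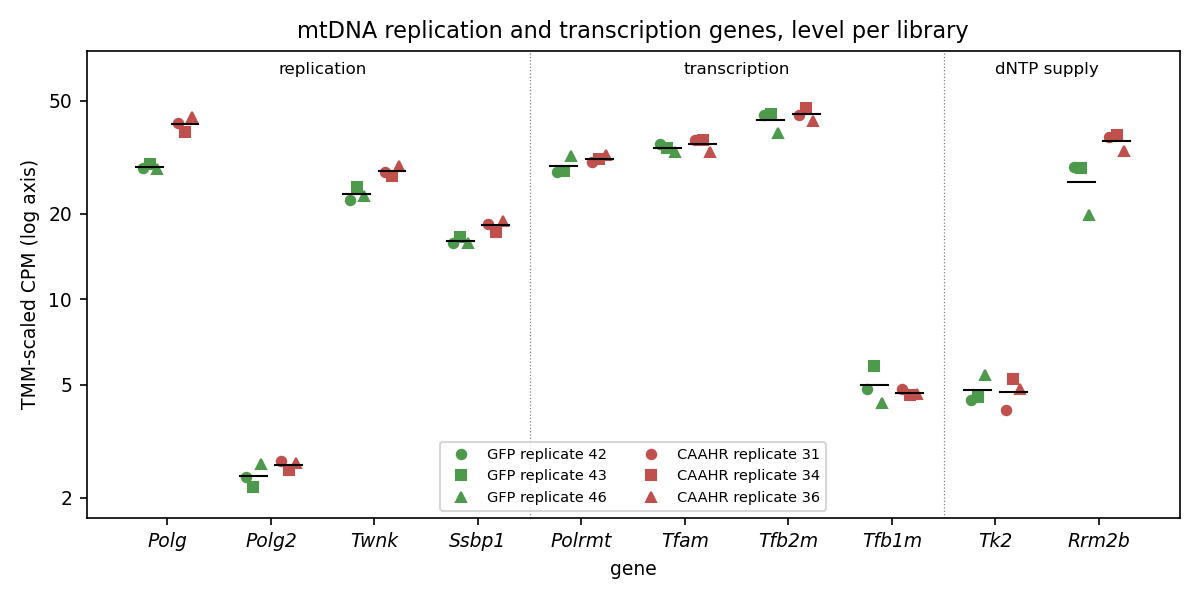
Level of each gene in each of the 6 libraries, in TMM-scaled CPM on a log axis. Points are libraries and black lines group means (n = 3). Polg, Twnk, Ssbp1 and Rrm2b were higher in every CAAHR library than in every GFP library, and the other 6 genes overlapped.

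Polg (ENSMUSG00000039176, chromosome 7, 79446231 to 79466362, GRCm38) encodes the catalytic subunit of the polymerase that copies and repairs mtDNA. It was at 41.8, 38.7 and 43.7 CPM in CAAHR replicates 31, 34 and 36, and at 29.1, 29.9 and 28.8 CPM in GFP replicates 42, 43 and 46. The lowest CAAHR library lay well above the highest GFP library, and the GFP libraries differed little among themselves. The group levels were 41.4 ± 2.51 CPM (SD, n = 3) and 29.3 ± 0.587 CPM. The log2 fold change was 0.50 ± 0.09 (SE), with an adjusted p of 0.00938, and the fold was 1.42 with a 95% interval of 1.24 to 1.62. By unadjusted p it was gene 374 of 15847. Polg was a gene the study had picked from these same libraries, so its call is not independent evidence. The study also sequenced muscles of smoke-exposed mice with and without a muscle-specific AHR knockout. From both experiments it states that Polg changed with the level of AHR activation. Those other libraries were not analysed here. The exons of Fanci, on the opposite strand, cover 8.57% of Polg exon bases, and Fanci itself drew 2 to 21 counts per library.

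The accessory subunit did not show the same difference. Polg2 (chromosome 11, 106768253 to 106779537), which holds the polymerase on its template, was at 2.69, 2.5 and 2.66 CPM in CAAHR replicates 31, 34 and 36. It was at 2.36, 2.19 and 2.62 CPM in GFP replicates 42, 43 and 46. The groups overlapped at their edges, with GFP replicate 46 above CAAHR replicate 34. The log2 fold change was 0.13 ± 0.17 (adjusted p 0.710). The 95% interval of the fold, 0.840 to 1.42, reached the fold of Polg, so counts of 91 to 162 per library left a difference of that size barely detectable. Milr1, on the opposite strand, shares 3.03% of Polg2 exon bases and drew 1 to 3 counts in CAAHR and 11 to 19 in GFP libraries.

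Twnk and Ssbp1 were fitted higher without passing the test. Twnk (chromosome 19, 45005663 to 45012762), the helicase that unwinds mtDNA ahead of the polymerase, was at 28.1, 27.1 and 29.5 CPM in CAAHR replicates 31, 34 and 36. In GFP replicates 42, 43 and 46 it was at 22.3, 24.9 and 23.1 CPM. All CAAHR libraries stood above all GFP libraries. Its log2 fold change was 0.27 ± 0.09 (unadjusted p 0.0153, adjusted p 0.107), and the 95% interval of the fold was 1.05 to 1.39. The exons of Mrpl43, a mitochondrial ribosomal protein gene on the opposite strand, cover 12.6% of Twnk exon bases, and the strandedness of the libraries was not stated. Mrpl43 had a log2 fold change of 0.09 ± 0.11 (adjusted p 0.693).

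Ssbp1 (chromosome 6, 40471352 to 40484700) was at 18.4, 17.3 and 18.9 CPM in CAAHR replicates 31, 34 and 36 and at 15.8, 16.6 and 15.8 CPM in GFP replicates 42, 43 and 46. The groups did not overlap, but the gap between CAAHR replicate 34 and GFP replicate 43 was narrow. The log2 fold change was 0.18 ± 0.09 (adjusted p 0.271). Of the 4 replisome genes, 1 was called (7.60% of all tested genes were) and 3 did not overlap and were higher (15.0% of all tested genes were), with a median log2 fold change of 0.22. In each of the 3 non-overlapping genes CAAHR replicate 34 was the lowest CAAHR library.

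Of the 4 genes of mtDNA transcription, 0 were called, 0 were at an unadjusted p under 0.05 and all 4 overlapped between the groups in the edgeR test. With 7.60% of all tested genes called, 0 of 4 is near the background, and a difference from the replisome genes as a group was not tested. DESeq2 and limma-voom also called 0 of them. Polrmt (chromosome 10, 79736123 to 79746581), the mitochondrial RNA polymerase, was at 30.4, 31.2 and 32.3 CPM in CAAHR replicates 31, 34 and 36. It was at 28.1, 28.3 and 31.9 CPM in GFP replicates 42, 43 and 46. One GFP library (replicate 46) lay within the CAAHR range. The log2 fold change was 0.09 ± 0.09 (adjusted p 0.610), and the fold interval was 0.924 to 1.23.

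Tfam (chromosome 10, 71225464 to 71238280), the packaging protein often used as a proxy for mtDNA content, was at 36.3, 36.3 and 32.9 CPM in CAAHR replicates 31, 34 and 36. It was at 35.1, 34 and 33.1 CPM in GFP replicates 42, 43 and 46. The lowest of the 6 libraries was a CAAHR one. The log2 fold change was 0.05 ± 0.09 (adjusted p 0.809), with a fold interval of 0.902 to 1.18. This interval lay wholly below the fitted fold of Polg.

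Tfb2m (chromosome 1, 179528055 to 179546267), the promoter-opening factor, was at 44.6, 47.3 and 42.6 CPM in CAAHR replicates 31, 34 and 36, against 44.6, 44.8 and 38.6 CPM in GFP replicates 42, 43 and 46. Its log2 fold change was 0.07 ± 0.10, with a fold interval of 0.905 to 1.22. Tfb1m (chromosome 17, 3519256 to 3557781), the ribosomal RNA methyltransferase, was at 4.83, 4.60 and 4.63 CPM against 4.85, 5.84 and 4.31 CPM in the same order of libraries. The GFP libraries enclosed the CAAHR libraries on both sides for Tfb1m. Its log2 fold change was -0.09 ± 0.15 (adjusted p 0.777), which turned to 0.03 without GFP replicate 43. Tfb1m shares 3.93% of its exon bases with Tiam2 on the opposite strand, and Tiam2 was at 5.99 to 15.5 CPM in CAAHR and 4.49 to 5.17 CPM in GFP libraries.

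**Figure D2:**
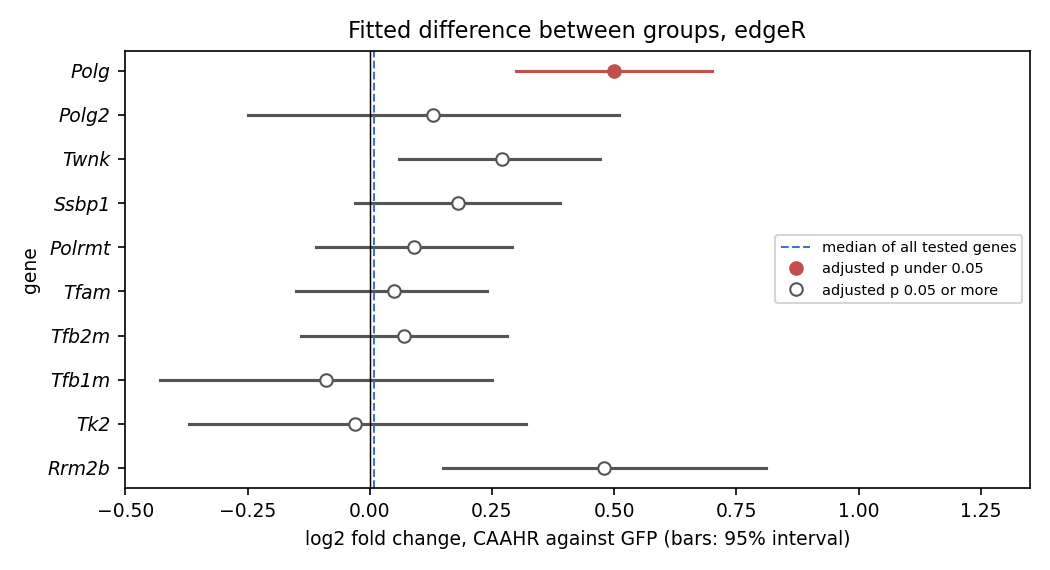
Log2 fold change of each gene, CAAHR against GFP, with its 95% interval from the edgeR fit. The filled point (Polg, 0.50) has an adjusted p under 0.05, open points do not, and the dashed line is the median of all tested genes (0.009).

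The 2 nucleotide supply genes differed from each other in fitted size. Rrm2b (chromosome 15, 37923952 to 37961318), the ribonucleotide reductase subunit used outside S phase, was at 37.4, 37.8 and 33.2 CPM in CAAHR replicates 31, 34 and 36. It was at 29.2, 28.9 and 19.8 CPM in GFP replicates 42, 43 and 46. The groups did not overlap, and GFP replicate 46 stood far below the other 2 GFP libraries. The group levels were 36.1 ± 2.57 and 26.0 ± 5.32 CPM (SD, n = 3), and the log2 fold change was 0.48 ± 0.15 (unadjusted p 0.00982, adjusted p 0.0835). Rrm2b thus had nearly the fitted fold of Polg (1.39, 95% interval 1.11 to 1.75) without its call. It was called by DESeq2 (adjusted p 0.0369), by edgeR with library size only (0.0491, where 9.31% of all tested genes were called) and by edgeR without a filter on low counts (0.000578, where 8.62% were). Without GFP replicate 46 its log2 fold change was 0.31 (adjusted p 0.141), so 1 library carried much of its size. With the mean level of slow fibre markers as a covariate, its log2 fold change was 0.78 ± 0.25 (adjusted p 0.151), while that of Polg was 0.37. That covariate did not overlap between the groups, so in such a fit fibre content and the vector cannot be told apart. An antisense gene, Gm49085, shares 8.04% of Rrm2b exon bases and was not analysed here.

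Tk2 (chromosome 8, 104226685 to 104248558), the mitochondrial thymidine kinase, was at 4.09, 5.23 and 4.82 CPM in CAAHR replicates 31, 34 and 36. In GFP replicates 42, 43 and 46 it was at 4.43, 4.54 and 5.42 CPM. The highest and the lowest library belonged to different groups and the rest were mixed. The log2 fold change was -0.03 ± 0.16 (adjusted p 0.946), and its sign changed under 4 of 15 alternatives. The fold interval of 0.772 to 1.25 lay below the fitted fold of Rrm2b (1.39) but overlapped its interval of 1.11 to 1.75. A difference between the 2 genes was not tested.

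Both enzymes have counterparts that serve nuclear DNA. Rrm2, the S-phase small subunit of ribonucleotide reductase, fell from 0.974, 1.39 and 0.982 CPM in GFP replicates 42, 43 and 46 to 0.534, 0.315 and 0.394 CPM in CAAHR replicates 31, 34 and 36, a log2 fold change of -1.43 ± 0.32 (adjusted p 0.0275). The call for Rrm2, which rests on 18 to 58 counts per library, was lost without CAAHR replicate 36 and without GFP replicate 42, 43 or 46. Rrm2b was therefore fitted higher and Rrm2 was lower in the same libraries, although the difference between their changes was not tested. Tk1, the cytosolic thymidine kinase, was at 7.91 to 11.3 CPM in CAAHR and 9.20 to 9.67 CPM in GFP libraries, with a log2 fold change of 0.07 ± 0.14. Of 10 proliferation markers, which include Rrm2 and Tk1, 4 were called lower (Mki67, Top2a, Ccnb1 and Rrm2) and 0 higher, and 7 did not overlap and were lower, as 14.9% of all tested genes did. The count was 2 (Mki67 and Top2a) without CAAHR replicate 36 or GFP replicate 42, 43 or 46, and Ccnb1, with 0 to 20 counts per library, was called in 1 of the 6 fits with a library left out. Immune cell markers also moved with the groups: 5 of 9 tested (Ptprc, S100a8, S100a9, Cd79a and Ighm) were called lower, 1 without CAAHR replicate 31 or 36 and 2 without CAAHR replicate 34 or GFP replicate 46, and their summed level was 13.6 to 23.7 CPM in CAAHR and 132 to 419 CPM in GFP libraries. By quantitative PCR, the study found selected immune genes no lower in CAAHR muscles than in uninjected muscle. It attributes the difference to a local immune response to the GFP virus. A lower value in CAAHR muscles here is therefore relative to GFP muscles only. In whole muscle, fewer cells of a type and less RNA per cell cannot be told apart, and the part of these cells in the values of the members was not tested.

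Because Rrm2b is a p53 target, 10 other p53 targets were set beside it. Of these, 0 were called higher and 2 lower, where 3.04% of all tested genes were called higher and 4.57% lower. Sesn1, a stress-responsive regulator of growth signalling, was at 0.41 ± 0.16 (adjusted p 0.162), and it was called higher without CAAHR replicate 34 (0.57, adjusted p 0.0141) and without a filter on low counts (0.43, adjusted p 0.00829). Eda2r, a receptor of the tumour necrosis factor receptor family, was at 11.9, 11.5 and 12.9 CPM in CAAHR replicates 31, 34 and 36 against 52.6, 33.9 and 26.4 CPM in GFP replicates 42, 43 and 46. Its log2 fold change was -1.64 ± 0.24 (adjusted p 0.00759). Phlda3, an inhibitor of AKT signalling, fell by 0.53 on the log2 scale (adjusted p 0.0417), a call lost without CAAHR replicate 31 or 36 and without GFP replicate 43 or 46. The classic target Cdkn1a, a cell cycle inhibitor, had a log2 fold change of 0.32 ± 0.18 (adjusted p 0.318). The log2 fold changes of the list had a median of -0.08 and a maximum of 0.41, and Rrm2b was at 0.48. Whether p53 had a part in the value of Rrm2b was not tested.

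The balance between members was also read within each library, where a ratio of 2 genes does not depend on how libraries are scaled. Counts were divided by exon length first. The Polg to Polg2 ratio was 6.31, 6.27 and 6.67 in CAAHR replicates 31, 34 and 36 and 4.99, 5.55 and 4.45 in GFP replicates 42, 43 and 46. The Polg to Twnk ratio was 0.556, 0.534 and 0.552 against 0.486, 0.448 and 0.465. The Polg to Polrmt ratio was 0.601, 0.540 and 0.589 against 0.452, 0.461 and 0.394. In each of these 3 ratios every CAAHR library stood above every GFP library. The differences in mean log2 ratio were 0.37, 0.23 and 0.41, and each had p = 0.1 (exact permutation test, two-sided, n = 3 per group), the smallest value that 3 libraries against 3 allow. The 3 ratios share Polg and so are not separate observations.

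The Tfb1m to Tfb2m ratio went the other way by a small amount. It was 0.0841, 0.0757 and 0.0844 in CAAHR replicates 31, 34 and 36 and 0.0844, 0.101 and 0.0867 in GFP replicates 42, 43 and 46. CAAHR replicate 36 and GFP replicate 42 were nearly the same. The difference in mean log2 ratio was -0.15, again with p = 0.1 by the exact permutation test (n = 3 per group), and over the 4 ratios the adjusted p was 0.1 for each.

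**Figure D3:**
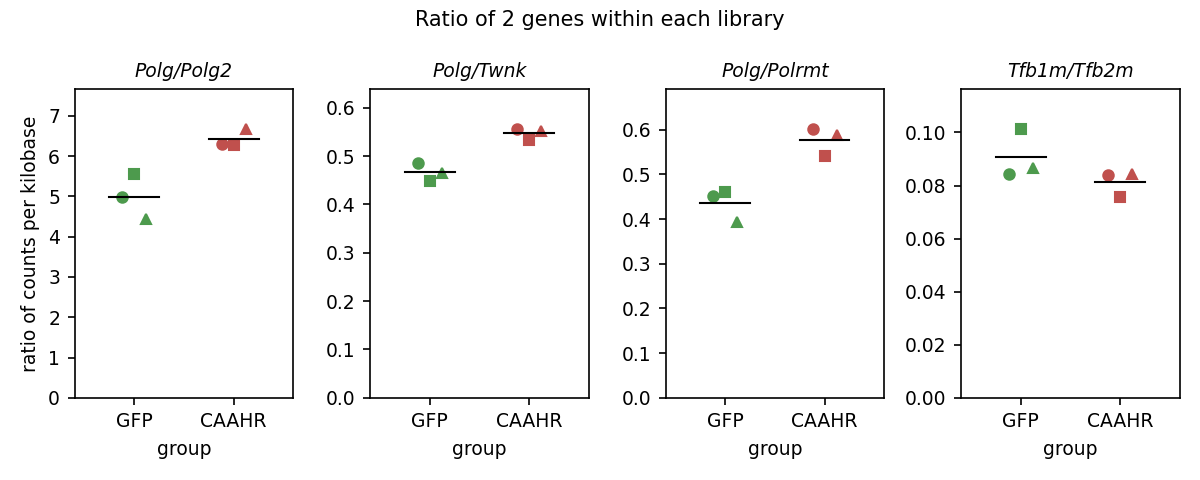
Ratio of 2 genes, as counts per kilobase of exon, in each library (points; black lines are means, n = 3), with axes starting at 0. Circles, squares and triangles are GFP replicates 42, 43 and 46 and CAAHR replicates 31, 34 and 36, in that order. The 3 ratios with Polg on top were higher in every CAAHR library, at 6.27 to 6.67 against 4.45 to 5.55 for Polg to Polg2.

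Levels were compared between genes as CPM per kilobase of exon (RPKM), with all annotated exons of a gene merged. This scale is set partly by how many exons are annotated, which ranged from 2804 merged bases for Tfb2m to 10742 for Polg. In GFP muscles Tfb2m was highest at 15.2 ± 1.27 RPKM (SD, n = 3) and Polg2 lowest at 0.549 ± 0.0505. Between them, in falling order, stood Tfam (7.67), Polrmt (6.28), Twnk (5.85), Rrm2b (2.84), Polg (2.72), Ssbp1 (1.92), Tfb1m (1.38) and Tk2 (1.34). The neighbours Polrmt and Twnk, Rrm2b and Polg, and Tfb1m and Tk2 overlapped among libraries. The order in CAAHR muscles was the same but for 2 of those pairs, with Twnk (7.04) above Polrmt (6.68) and Tk2 (1.32) above Tfb1m (1.30), and the same 3 pairs overlapped. Polg was at 3.85 ± 0.234 RPKM there. The coefficient of variation within groups was 2.01% for Polg in GFP and 6.07% in CAAHR libraries. Among the members it was widest for Rrm2b in GFP libraries, at 20.5%.

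The genes around the members in the same pathway showed no common direction. Of 19 other genes of mtDNA upkeep and repair, 0 were called higher and 1 was called lower, where 7.60% of all tested genes were called. Fitted values were higher for 9 and lower for 10, with a median log2 fold change of -0.03. The called gene was Ung, the glycosylase that removes uracil from nuclear and mitochondrial DNA. It was at 4.65, 4.34 and 5.07 CPM in CAAHR replicates 31, 34 and 36 and at 6.24, 7.35 and 7.55 CPM in GFP replicates 42, 43 and 46, without overlap. Its log2 fold change was -0.59 ± 0.14 (adjusted p 0.0327). The call for Ung was lost without CAAHR replicate 31 or 36 and without GFP replicate 43 or 46.

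Of 15 other genes of mitochondrial deoxynucleotide supply, 0 were called higher and 1 was called lower, against the same 7.60% of all tested genes. Fitted values were higher for 5 and lower for 10, with a median of -0.10. The called gene was Samhd1, a hydrolase that breaks down deoxynucleotides and thus works against Tk2 and Rrm2b. It was at 21.1, 19 and 21.3 CPM in CAAHR replicates 31, 34 and 36 and at 35.7, 38.6 and 29.9 CPM in GFP replicates 42, 43 and 46. The groups were far apart, and the log2 fold change of -0.76 ± 0.11 had an adjusted p of 0.00428, and it was called whichever of the 6 libraries was left out but not with the slow fibre covariate. Samhd1 is also expressed in immune cells, whose markers were lower in the same libraries as given above, and their part in its value was not tested.

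The 24 genes of transcript elongation, termination and RNA handling had 0 calls and 0 at an unadjusted p under 0.05 in the edgeR test, with 0 calls by DESeq2 and by limma-voom as well. Their median was -0.01, and fitted values ran from -0.19 to 0.39. The 2 with the smallest p-values were Fastkd2, a mitochondrial RNA-binding protein (-0.19 ± 0.10, unadjusted p 0.0863), and Pnpt1, a polynucleotide phosphorylase that degrades RNA (0.18 ± 0.11, unadjusted p 0.138). Of 10 regulators of mtDNA expression, 0 were called by edgeR, DESeq2 or limma-voom, and 1 was at an unadjusted p under 0.05. The ETS factor Gabpa is known to act on promoters of nuclear genes that serve mtDNA. Its level was 33, 29.2 and 30 CPM in CAAHR replicates 31, 34 and 36 and 26.5, 23.4 and 22.5 CPM in GFP replicates 42, 43 and 46. The groups did not overlap, and its log2 fold change of 0.35 ± 0.10 had an adjusted p of 0.0653. Gabpa was called with library size only (adjusted p 0.0409) and without a filter on low counts (0.0251). Perm1, a muscle regulator of mitochondrial genes, was at 0.54 ± 0.34 (adjusted p 0.397). With the slow fibre covariate it was at -0.83 and was called lower (adjusted p 0.0476). Because that covariate did not overlap between the groups, this value cannot separate fibre content from the vector. Nrf1, another factor of these promoters, had a log2 fold change of -0.22 ± 0.10 (adjusted p 0.238), and the coactivator Ppargc1a one of -0.29 ± 0.16 (adjusted p 0.304).

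The transcripts made by this machinery were counted too. Of 15 listed mtDNA-encoded transcripts, 13 were in the table, 0 were called by edgeR, DESeq2 or limma-voom, 0 were at an unadjusted p under 0.05, and all 13 overlapped between groups, with a median of -0.03. In GFP muscles mt-Nd3, mt-Nd4l, mt-Co2, mt-Co3, mt-Atp6 and mt-Atp8 averaged 4.48 to 40.7 CPM, and the others 3130 to 34700 CPM. Only unique reads were counted, and what that did to the low values was not tested, so they may not reflect transcript levels. Reads assigned to mt-Nd6, the light-strand transcript, were at 4240, 2340 and 2620 CPM in CAAHR replicates 31, 34 and 36. They were at 2950, 3170 and 3270 CPM in GFP replicates 42, 43 and 46. Because the strandedness of the libraries was not stated, reads from the opposite strand cannot be set apart in these values. The 2 with the smallest p-values were mt-Nd1 (-0.25 ± 0.18, adjusted p 0.437) and mt-Nd4l (0.23 ± 0.22, adjusted p 0.599). With the slow fibre covariate 1 was called, mt-Nd3, which turned from 0.25 ± 0.36 (adjusted p 0.745) to -1.16 (adjusted p 0.022). The same limit holds for this value, since the covariate did not overlap between the groups. Of 10 markers of mitochondrial content, 0 were called by these tools and 0 were at an unadjusted p under 0.05, with a median of 0.03. The 2 smallest p-values among these were those of Sdha (0.21 ± 0.11, adjusted p 0.269) and Vdac1 (-0.15 ± 0.11, adjusted p 0.448). Citrate synthase (Cs), an enzyme often measured for mitochondrial content, had a log2 fold change of -0.10 ± 0.10.

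**Figure D4:**
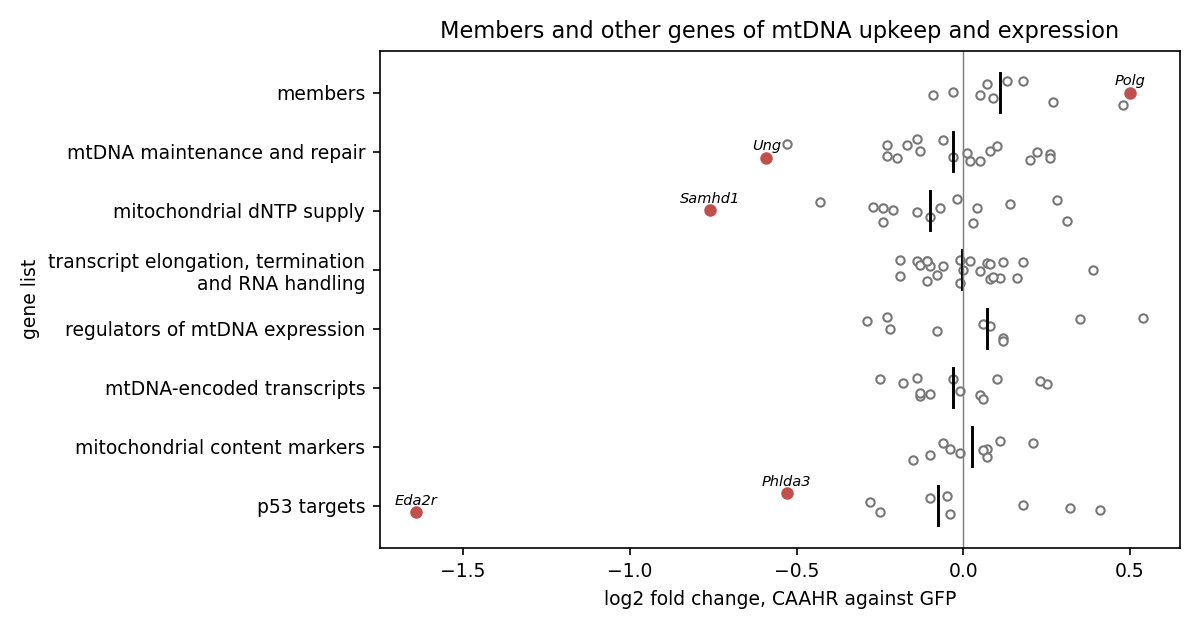
Log2 fold change of each tested gene in the members and in 7 lists of related genes, with black bars for list medians. Filled points have an adjusted p under 0.05 and are named, open points do not, and vertical scatter within a list has no meaning. Polg (0.50) was the called gene on the right, and Ung (-0.59), Samhd1 (-0.76), Phlda3 (-0.53) and Eda2r (-1.64) were those on the left.

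The genes most like Polg across the 6 libraries were sought among 7047 genes with a mean of at least 10 CPM, by Pearson's r of log2 CPM. They were Pex19, a peroxisome assembly factor (r = 0.998), Psmd5, a proteasome chaperone (0.997), St3gal2, a sialyltransferase (0.997), the transporter gene Slc6a17 (0.996) and Htt, the huntingtin gene (0.996). With 6 libraries in 2 groups, such an r mostly restates the difference between groups, and it is given as a description. Of these 5, Psmd5 (log2 fold change 0.44), St3gal2 (0.69) and Slc6a17 (2.94) were called. Among the members r to Polg was 0.96 for Twnk and for Ssbp1, ranks 125 and 98, 0.77 for Rrm2b and 0.62 for Polg2. It was 0.56 for Polrmt, 0.33 for Tfb2m, 0.26 for Tfam, -0.19 for Tk2 and -0.23 for Tfb1m.

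Slow fibre transcripts differed between the libraries. The mean log2 CPM of 8 slow fibre markers was 7.98, 5.85 and 7.88 in CAAHR replicates 31, 34 and 36 and 4.22, 4.79 and 5.35 in GFP replicates 42, 43 and 46. Their summed level was 646 to 2772 CPM and 227 to 460 CPM, and 0 of 8 were called by edgeR, with 7 at an unadjusted p under 0.05, all higher. The smallest p-values were those of Atp2a2 (2.32 ± 0.49, adjusted p 0.0526) and Tnni1 (3.30 ± 0.73, adjusted p 0.0653). Of the 8, all were called higher by limma-voom, 7 by DESeq2, 6 by edgeR without robust estimation and 6 by edgeR without CAAHR replicate 34. Among CAAHR libraries replicate 34 was lowest both in these markers and in Polg, and among GFP libraries replicate 46 had the highest marker mean and the least Polg. Polg lay 0.51, 0.40 and 0.58 (log2) above the GFP mean in CAAHR replicates 31, 34 and 36. With the slow fibre mean as a covariate the log2 fold change of Polg was 0.37 ± 0.16 and the call was lost (adjusted p 0.267, in a fit that called 2.74% of all tested genes). That covariate did not overlap between the groups, so the contribution of fibre content and that of the vector cannot be told apart. The call for Polg held under each of the other 14 alternatives run.

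**Figure D5:**
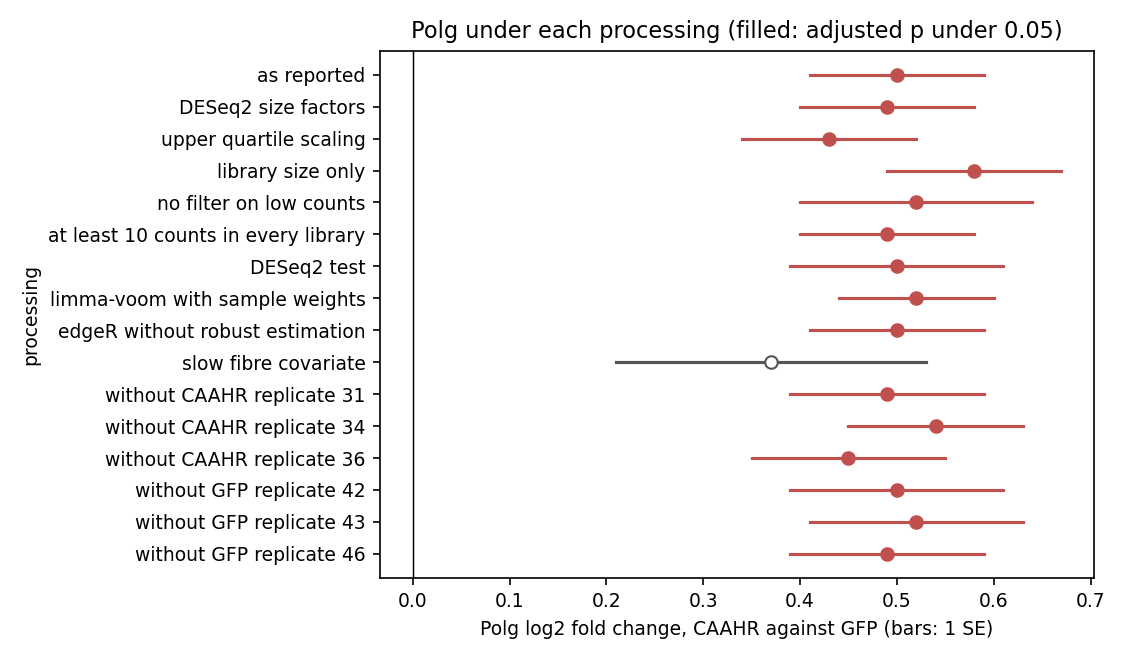
Log2 fold change of Polg, CAAHR against GFP, with 1 SE, as reported and under 15 other ways of processing. Filled points have an adjusted p under 0.05. All lay between 0.37 and 0.58, and the slow fibre covariate gave the 1 open point.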

How the data were processed

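Raw counts, deposited as 1 whole number per gene and library, were available for 6 libraries. As the authors describe, poly(A)-selected RNA was sequenced as paired ends, trimmed with Trimmomatic 0.36, aligned to GRCm38 with STAR 2.5.2b, and unique reads in exons were summed with featureCounts. Strandedness was not stated. Libraries were grouped by title. Counts were filtered with filterByExpr, scaled by TMM and compared in R 4.3.3 with edgeR 4.0.16 (robust quasi-likelihood F test, Benjamini-Hochberg adjustment over 15847 genes, threshold 0.05). Standard errors and 95% intervals came from the F statistic. Alternatives used DESeq2 1.42.0, which the authors used, and limma 3.58.1. Exon lengths and positions came from GENCODE M21, which held 49056 of the identifiers. The members, lists and alternatives were chosen with earlier results of these data known. Named were all members, overlapping genes, AHR pathway genes, the 5 genes most like Polg, and called genes of each list of related genes or else its 2 smallest p-values. Cell marker genes, mt-Nd3, mt-Nd6, Cs, Cdkn1a, Sesn1, Perm1 and Ppargc1a were named after their values were seen. In data simulated for this comparison, edgeR called 96% of 100 genes changed 4-fold and 26% of 100 changed 1.5-fold, and 6.87% of its 131 calls were unchanged genes. Of the genes changed 1.5-fold, DESeq2 called 46% and limma-voom 17%. Unchanged genes made up 18.3% of the calls by DESeq2 and 10.1% of those by limma-voom. No other genes were changed there, whereas 1205 were called in the data. The median SE in the data was 0.09 for the members and 0.16 for all tested genes. The simulated shares therefore need not hold for the members.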

Additional observations from a re-analysis of the deposited data

How the results depend on the processing

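No paired analysis was possible because no replicate number occurred in both groups. Of the 10 members, 1 was called as reported, 3 with library size only (Polg, Twnk at 0.35 and Rrm2b at 0.56), 2 without a filter on low counts, 2 with DESeq2 (Polg and Rrm2b both times) and 0 with the slow fibre covariate, where Polg was at 0.37 and 2 members were at an unadjusted p under 0.05. With one library left out, 1 was called each time, and Polg ranged from 0.45 to 0.54 (adjusted p 0.00600 to 0.0474). Over all genes 1205 were called, 2470 without a filter, 1932 with DESeq2, 434 with the covariate, and 530 (without CAAHR replicate 36) to 1727 (without CAAHR replicate 34) with one library left out. Library size only moved the median of all genes by 0.08 and upper quartile scaling by -0.07, and the split of calls went from 481 higher and 724 lower to 876 and 600 with the former and 358 and 990 with the latter. Signs reversed for Tfam (-0.03) and Tfb2m (-0.00098) with upper quartile scaling, for Polg2 (-0.02) with the covariate, and for Tk2 with library size only (0.05), with the covariate (0.09) and in the range -0.12 to 0.07 with one library left out. Tfb1m ranged from -0.19 to 0.03 in those fits. The cause was not tested. Of 135 checks of the 9 members other than Polg, 123 kept direction and side of the threshold, 4 gained a call and 8 reversed. The ratio differences kept their sign without any one library (0.29 to 0.44, 0.20 to 0.26 and 0.34 to 0.45 for Polg to Polg2, Twnk and Polrmt, and -0.20 to -0.07 for Tfb1m to Tfb2m). Polg2, with 91 to 162 counts per library, and Tk2 and Tfb1m had the widest intervals.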
